A study of Homo sapiens with 6 samples.

Results

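Transcripts of plasma protein, apolipoprotein, hepatocyte factor, fetal liver or hepatoma, and epithelial genes were followed in RNA sequencing of the human leukaemia line Kasumi-1. The set holds 37 listed gene symbols, of which 35 had a row among the 27576 genes of the table and 2, the cytochrome P450 genes CYP3A4 and CYP3A7, were not analysed here. The genes were chosen because liver transcripts had been seen in both libraries numbered replicate 2, so the contrast of those libraries with the other 4 is given as a description, with no test.

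Kasumi-1 is a line from an acute myeloid leukaemia with the t(8;21) fusion of RUNX1 and RUNX1T1, and it was the source of every library. The IL-10 group (n = 3) received recombinant human interleukin-10, a cytokine that signals through STAT3, at 10 ng/ml for 72 h. The control group (n = 3) received 0.5% bovine serum albumin for the same time, and the medium of both groups held 20% fetal bovine serum. The labels do not state whether replicates came from separate cultures, and p-values here speak only of the variation among these 6 libraries, part of which may be technical.

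Hepatocytes make most circulating plasma proteins, among them albumin, transferrin, fibrinogen and the apolipoproteins that carry lipids in blood. Factors of the HNF and FOXA families keep these genes active in the liver. Alpha-fetoprotein is made by the fetal liver and again by many hepatomas, while several P450 enzymes are abundant in the adult organ.

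Promoter sequences are given as background, because liver factors act on short sites close to the start of transcription. RefSeq windows (GRCh38.p14) from 250 bases before to 50 after each start were matched by symbol for 22 of the 35 genes with a row. ITIH2, FOXA2, GPC3, EPCAM, CDH1, APOA1, APOB, SERPINC1, KRT19, TTR, APOC3, HP and KRT18 had no match. The 6 windows below belong to 5 genes on which the results turn. ALB (chr4:73404037-73404336, plus strand) and AFP (chr4:73435971-73436270, plus strand) are neighbouring genes for an adult and a fetal plasma protein. AHSG (chr3:186612810-186613109, plus strand) and APOA2 (chr1:161223579-161223878, minus strand) were high in replicate 2. SERPINA1 was abundant in every library, and both of its windows are shown (start 1 at chr14:94390586-94390885 and start 2 at chr14:94388553-94388852, minus strand). Each is written 5′ to 3′, and capitals mark matches on either strand to the motifs described after them.
ALB: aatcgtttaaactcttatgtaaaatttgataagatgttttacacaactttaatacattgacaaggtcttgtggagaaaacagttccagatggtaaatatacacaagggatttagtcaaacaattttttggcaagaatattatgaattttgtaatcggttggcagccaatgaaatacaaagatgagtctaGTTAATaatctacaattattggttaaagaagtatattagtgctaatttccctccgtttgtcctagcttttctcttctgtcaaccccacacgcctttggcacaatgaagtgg
AFP: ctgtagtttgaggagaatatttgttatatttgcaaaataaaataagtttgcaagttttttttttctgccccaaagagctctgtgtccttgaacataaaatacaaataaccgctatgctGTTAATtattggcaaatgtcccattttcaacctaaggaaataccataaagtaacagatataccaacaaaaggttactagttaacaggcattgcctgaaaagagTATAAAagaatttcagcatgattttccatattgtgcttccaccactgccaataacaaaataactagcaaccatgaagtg
AHSG: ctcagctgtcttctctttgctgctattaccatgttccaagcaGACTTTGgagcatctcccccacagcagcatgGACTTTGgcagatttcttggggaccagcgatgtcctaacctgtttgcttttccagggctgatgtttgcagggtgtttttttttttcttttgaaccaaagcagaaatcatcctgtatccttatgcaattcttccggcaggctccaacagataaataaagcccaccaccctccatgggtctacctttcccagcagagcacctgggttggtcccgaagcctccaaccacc
APOA2: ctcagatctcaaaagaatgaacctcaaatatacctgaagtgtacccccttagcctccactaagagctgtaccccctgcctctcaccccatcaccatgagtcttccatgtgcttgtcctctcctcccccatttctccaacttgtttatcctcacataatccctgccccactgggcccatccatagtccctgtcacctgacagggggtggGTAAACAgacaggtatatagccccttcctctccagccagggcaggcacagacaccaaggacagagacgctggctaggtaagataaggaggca
SERPINA1 start 1: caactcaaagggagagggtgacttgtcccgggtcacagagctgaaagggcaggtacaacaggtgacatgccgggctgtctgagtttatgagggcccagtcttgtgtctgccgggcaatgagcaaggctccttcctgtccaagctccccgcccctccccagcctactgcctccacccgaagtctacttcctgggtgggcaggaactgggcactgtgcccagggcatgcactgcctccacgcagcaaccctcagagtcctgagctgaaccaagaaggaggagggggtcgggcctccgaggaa
SERPINA1 start 2: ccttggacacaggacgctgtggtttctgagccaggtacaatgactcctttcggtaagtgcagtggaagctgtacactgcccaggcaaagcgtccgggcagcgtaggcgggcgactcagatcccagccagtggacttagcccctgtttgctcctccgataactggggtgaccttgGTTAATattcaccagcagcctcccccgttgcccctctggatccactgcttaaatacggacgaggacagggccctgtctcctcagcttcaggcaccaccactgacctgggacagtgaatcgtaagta

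The letters searched for were GTTAAT (the HNF1 half-site), TGTTTAC (FOXA), CAAAGTC (the HNF4 core) and the common promoter element spelled TATAAA, on both strands, with no overlap between the 4. GTTAAT lay in the windows of 8 of the 22 genes (36.4%), namely ALB, AFP, APOH, F2, FGA, FGB, HNF4A and SERPINA1, against 8.27% of 27305 genes in the promoter table. In SERPINA1 it lay in the window of the second start and not in that of the first. TGTTTAC was found in 1 of the 22 genes, APOA2 (4.55%, against 4.19% of all genes). CAAAGTC was found in 2, AHSG and ITIH1 (9.09%, against 4.16% of all genes). TATAAA was found in AFP, RBP4, FOXA3 and CYP2E1 (18.2%), against 13.99% of all genes. A match describes the letters only and is not a binding site.

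Recovered depth was 20750115 to 24222897 reads per library, and values are normalised read counts, meaning reads divided by 1 size factor for each library. IL-10 replicate 2 differed from control replicate 2 in a way that moved with GC content, and which of them was unusual was not tested. Across all 16648 genes with at least 10 reads over both replicate 2 libraries, its ratio to control replicate 2 had a median of 1.05, but 0.691 in genes with a coding GC content under 45%, 1.02 at 45 to 55% and 1.46 at 55% or more. All 6 markers of the leukaemia line were present in every library, and none was 2-fold higher in both replicate 2 libraries. RUNX1T1 stood at 3071 in IL-10 replicate 2 and 3650 in control replicate 2, and at 3835 to 3878 in the other 4. Also below the other 4 in both were KIT (29296 and 38003, against 41083 to 54533) and PTPRC (3251 and 5837, against 6609 to 8099). CD34 (14919 and 13483, against 11415 to 12612) and CD33 (2280.2 and 2031, against 1584 to 1904) were above them, and MPO overlapped (160649 and 89131, against 66945 to 151854). Their part in the results below was not tested.

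Of the 35 genes, 18 (51.4%) were at least 2-fold higher in both replicate 2 libraries than in the highest of the other 4, with each library raised to a floor of 3 reads. The background was 125 of 27576 genes, or 0.453%. At 10-fold or more the numbers were 6 of the 35 and 12 of all genes (0.0435%). The 18 were AHSG, TF, ALB, AMBP, ITIH2, RBP4, F2, FGA, FGG and AFP of the plasma proteins, APOA1, APOA2, APOB, APOC3 and APOH of the apolipoproteins, HNF4A of the factors, and the keratins KRT8 and KRT18. No listed gene was 2-fold lower in both, against 127 of all 27576 genes. Without IL-10 replicate 2 the count was 20 of the 35, against 309 of all genes (1.12%), and without control replicate 2 it was 21, against 858 (3.11%). All 35 had reads in both replicate 2 libraries, as did 74.7% of all genes. In each of the other 4, 12 of the 35 had 0 reads (1.97% of all genes, or 0.765% with reads in both replicate 2 libraries) and 22 had at most 3 (25.2% of all genes). Bulk RNA cannot tell fewer cells of a type from less RNA per cell. What moved with replicate 2 was measured, and its origin was not tested.

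**Figure D1:**
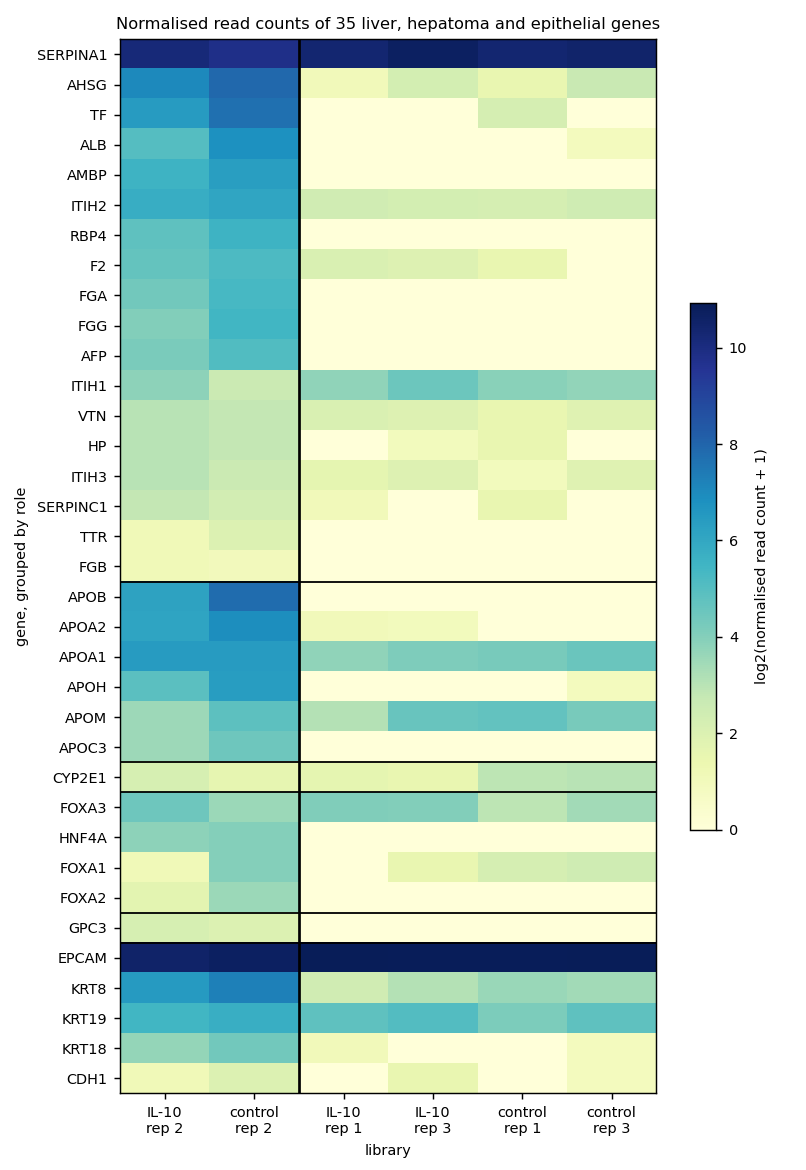
Heat map of the 35 genes with a row, grouped by role down the page, in the 6 libraries across it (IL-10 and control replicate 2 left of the line, the other 4 right of it). Colour is log2(normalised read count + 1). Most plasma protein and apolipoprotein genes are darker left of the line than right of it, while SERPINA1 and EPCAM are dark throughout.

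Among the plasma proteins, 10 of 18 were at least 2-fold higher in both replicate 2 libraries. AHSG, which encodes the bone-mineral inhibitor fetuin-A (ENSG00000145192, chromosome 3, 186612923 to 186621318), stood at 128 in IL-10 replicate 2 and 243 in control replicate 2. In IL-10 replicates 1 and 3 it stood at 1.07 and 3.80, and in control replicates 1 and 3 at 1.86 and 5.34. The gap is a factor of 24.0 between the lower of the replicate 2 libraries and the highest of the others. TF, for the iron carrier transferrin (ENSG00000091513, chromosome 3, 133745956 to 133796640), stood at 85.8 in IL-10 replicate 2 and 209 in control replicate 2, at 3.73 in control replicate 1 and at 0 in the other three. TF overlaps SRPRB on the same strand, and SRPRB stood at 2996 and 2427 in IL-10 and control replicate 2 and 1637 to 2050 in the other 4. How reads at the overlap were assigned was not tested.

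ALB, for albumin, the main protein of plasma (ENSG00000163631, chromosome 4, 73397114 to 73421412), stood at 31.7 in IL-10 replicate 2 and 112 in control replicate 2. A single read was found in control replicate 3, a value of 0.890, and none in the remaining libraries. AMBP, whose product is split into alpha-1-microglobulin and bikunin, stood at 47.0 in IL-10 replicate 2 and 79.6 in control replicate 2. It was at 0 in the other 4, so both values are at least 14.7-fold above the floor there. RBP4, the retinol carrier of blood, had the same shape, at 27.0 and 46.7 in IL-10 and control replicate 2 and 0 elsewhere, at least 8.43-fold.

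ITIH2, a heavy chain of the inter-alpha-trypsin inhibitors that bind hyaluronan, stood at 54.1 in IL-10 replicate 2, 67.6 in control replicate 2 and 3.73 to 4.45 in the other 4. Its sister chains did not follow it. ITIH1 stood at 12.9 in IL-10 replicate 2 and 4.97 in control replicate 2, against 12.8 and 21.8 in IL-10 replicates 1 and 3 and 13.97 and 12.5 in control replicates 1 and 3. ITIH3 stood at 7.05 in IL-10 replicate 2, 4.97 in control replicate 2 and 0.932 to 2.85 in the others, which is above them but within 2-fold of the floor.

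Clotting and fibrinogen genes were lower in level but clear of the other libraries. F2, for prothrombin, stood at 24.7 and 35.8 in IL-10 and control replicate 2 and at 0 to 3.21 in the other 4. The fibrinogen chain FGA stood at 20.0 and 38.8 in IL-10 and control replicate 2, and the chain FGG at 15.3 and 42.8. Both were at 0 in the other 4 libraries. The third chain, FGB, had 1 read in each replicate 2 library and 0 in the rest. The fibrinogen genes lie next to each other on chromosome 4, and they encode subunits of the same protein.

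AFP, for alpha-fetoprotein (ENSG00000081051, chromosome 4, 73431138 to 73456174), stood at 17.6 in IL-10 replicate 2 and 32.8 in control replicate 2. It had 0 reads in each of the other 4 libraries, so it was at least 5.50-fold higher.

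The other plasma protein genes showed no such gap. SERPINA1, for the elastase inhibitor alpha-1-antitrypsin (ENSG00000197249, chromosome 14, 94376747 to 94390693), stood at 1158 in IL-10 replicate 2 and 879 in control replicate 2. Its values were 1315 and 1664 in IL-10 replicates 1 and 3, and 1300 and 1435 in control replicates 1 and 3. Both replicate 2 libraries were thus below all of the others for this gene, although it is best known as a liver product. SERPINA1 is also expressed by myeloid cells. HP, for the haemoglobin binder haptoglobin, stood at 7.05 and 5.97 in IL-10 and control replicate 2, against 0 and 0.95 in IL-10 replicates 1 and 3 and 1.86 and 0 in control replicates 1 and 3. VTN, for vitronectin, SERPINC1, for antithrombin, and TTR, for transthyretin, stayed at 7.05 or less in every library. HP and VTN, at 1.86-fold, were the closest genes outside the 2-fold limit, and APOC3, at 3.30-fold, was the closest inside it.

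Of the 6 apolipoprotein genes, 5 were at least 2-fold higher in both replicate 2 libraries. APOB, the structural protein of low-density lipoprotein (ENSG00000084674, chromosome 2, 21001429 to 21044073), stood at 70.5 in IL-10 replicate 2 and 222 in control replicate 2. Not a read was found in the other 4, which puts it at least 22-fold higher. APOA2, a protein of high-density lipoprotein, stood at 68.2 and 118 in IL-10 and control replicate 2, at 1.07 and 0.95 in IL-10 replicates 1 and 3, and at 0 in control replicates 1 and 3.

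APOH, a phospholipid-binding glycoprotein, stood at 28.2 in IL-10 replicate 2 and 82.5 in control replicate 2, with 0.890 in control replicate 3 and 0 in the rest. APOC3, an inhibitor of lipoprotein lipase, stood at 10.6 and 20.9 in IL-10 and control replicate 2 and 0 elsewhere. APOA1, the main protein of high-density lipoprotein (ENSG00000118137, chromosome 11, 116835751 to 116837950), differed from these genes in having reads everywhere. It stood at 85.8 in IL-10 replicate 2 and 83.5 in control replicate 2, against 12.8 and 16.1 in IL-10 replicates 1 and 3 and 17.7 and 22.2 in control replicates 1 and 3. The antisense gene APOA1-AS overlaps it and stood at 11.8 and 4.97 in IL-10 and control replicate 2 and 9.62 to 16.1 in the other 4. The use of strand in counting is not given in the sources used here, so some reads at APOA1 may come from its antisense partner.

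APOM, a carrier of sphingosine-1-phosphate, was the exception among the 6. It stood at 10.6 in IL-10 replicate 2 and 27.8 in control replicate 2, against 7.48 and 22.8 in IL-10 replicates 1 and 3 and 25.2 and 17.8 in control replicates 1 and 3, so the libraries overlapped. Its exons overlap BAG6 on the opposite strand, a gene at 12214 and 6474 in IL-10 and control replicate 2 and 5679 to 6060 in the other 4.

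Of the factors that keep hepatocyte genes active, HNF4A alone passed the 2-fold limit. HNF4A, a nuclear receptor (ENSG00000101076, chromosome 20, 44355700 to 44434596), stood at 12.9 in IL-10 replicate 2 and 14.9 in control replicate 2 and had 0 reads in the other 4, at least 4.03-fold. FOXA2, a forkhead pioneer factor, stood at 2.35 and 10.9 in IL-10 and control replicate 2 and 0 elsewhere, which left IL-10 replicate 2 at the floor. FOXA1, a related pioneer factor, stood at 1.18 in IL-10 replicate 2 and 14.9 in control replicate 2, against 0 and 1.90 in IL-10 replicates 1 and 3 and 3.73 and 4.45 in control replicates 1 and 3. FOXA3, the third of the family, was found in every library, at 21.2 in IL-10 replicate 2, 10.9 in control replicate 2, 16.0 and 15.2 in IL-10 replicates 1 and 3, and 6.52 and 9.79 in control replicates 1 and 3. Its value in control replicate 2 lay among those of the other 4 libraries, and its value in IL-10 replicate 2 was above all of them.

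The adult and oncofetal markers were near the floor. CYP2E1, an ethanol-oxidising P450 of adult liver, stood at 3.53 and 1.99 in IL-10 and control replicate 2, against 2.14 and 1.90 in IL-10 replicates 1 and 3 and 6.52 and 7.12 in control replicates 1 and 3. Its highest values were thus outside replicate 2. GPC3, a cell-surface glypican of fetal liver and hepatoma, had 3 reads in each replicate 2 library, at 3.53 with IL-10 and 2.98 in control, and 0 in the others. A difference of that size was not detectable at this depth.

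The epithelial genes divided in a similar way. KRT8, a keratin of simple epithelia including hepatocytes, stood at 87.0 in IL-10 replicate 2 and 156 in control replicate 2, against 4.28 and 7.60 in IL-10 replicates 1 and 3 and 11.2 and 9.79 in control replicates 1 and 3. Its filament partner KRT18 stood at 11.8 and 19.9 in IL-10 and control replicate 2 and at 0 to 1.07 in the other 4. Both keratins have processed pseudogenes and their annotated exons overlap on opposite strands, so their levels are uncertain.

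KRT19, a keratin of bile duct rather than hepatocytes, was less separated, at 42.3 and 52.7 in IL-10 and control replicate 2, against 26.7 and 32.3 in IL-10 replicates 1 and 3 and 16.8 and 26.7 in control replicates 1 and 3. EPCAM, an epithelial adhesion molecule, was abundant everywhere and lowest in replicate 2, at 1487 with IL-10 and 1675 in control, against 1942 and 1862 in IL-10 replicates 1 and 3 and 1865 and 1894 in control replicates 1 and 3. CDH1, for E-cadherin, had at most 3 reads in any library.

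Because SERPINA1 and EPCAM dominate the sum, the share of reads in all 35 genes does not set both replicate 2 libraries apart. It was 133 reads per 1000000 in IL-10 replicate 2 and 194 in control replicate 2, against 151 and 170 in IL-10 replicates 1 and 3 and 150.1 and 160.5 in control replicates 1 and 3. The 14 genes at a value of at most 1 in each of the other 4 libraries give another picture. They took 10.7 reads per 1000000 in IL-10 replicate 2 (Wilson 95% interval 9.41 to 12.1, 246 reads) and 31.9 in control replicate 2 (29.6 to 34.3, 715 reads). The other libraries had 0 reads of these genes (Wilson upper bounds of 0.164 to 0.185 per 1000000), except control replicate 3, which had 2 reads. Those 14 were picked by their low level outside replicate 2, and the intervals cover counting error only.

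The genes kept nearly the same order of level in both replicate 2 libraries. Over the 18 higher genes, the Spearman correlation of their values was 0.926 and the Pearson correlation on the log2 scale 0.915, a description over genes that share libraries. Per kilobase of coding sequence, the level averaged over both libraries was highest for APOA2, at 311 normalised reads, ahead of AHSG at 168 and APOA1 at 106. KRT8 was next at 83.9 and then TF at 70.4, with ALB at 39.4, AFP at 13.8, APOB at 10.7 and HNF4A at 9.79. AHSG was thus above ALB in both libraries on this scale, at 116 against 17.4 in IL-10 replicate 2 and 220.4 against 61.5 in control replicate 2. Reads outside the coding sequence are included, so genes with long untranslated ends are overstated.

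IL-10 replicate 2 had fewer reads of these genes than control replicate 2. The summed value of the 18 higher genes was 0.508 of that in control replicate 2 (exact 95% interval 0.465 to 0.556, from 703 and 1635 reads). Of the 18, 17 had a ratio below 1, and in 11 the exact interval lay wholly below 1. Among all 29 listed genes with at least 10 reads over both libraries, 22 (75.9%) had a ratio below 1, against 46.0% of 16648 genes, and 8 (27.6%) were at least 2-fold lower in IL-10 replicate 2, against 7.84%. These are comparisons of a single pair of libraries and not of the treatments.

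**Figure D2:**
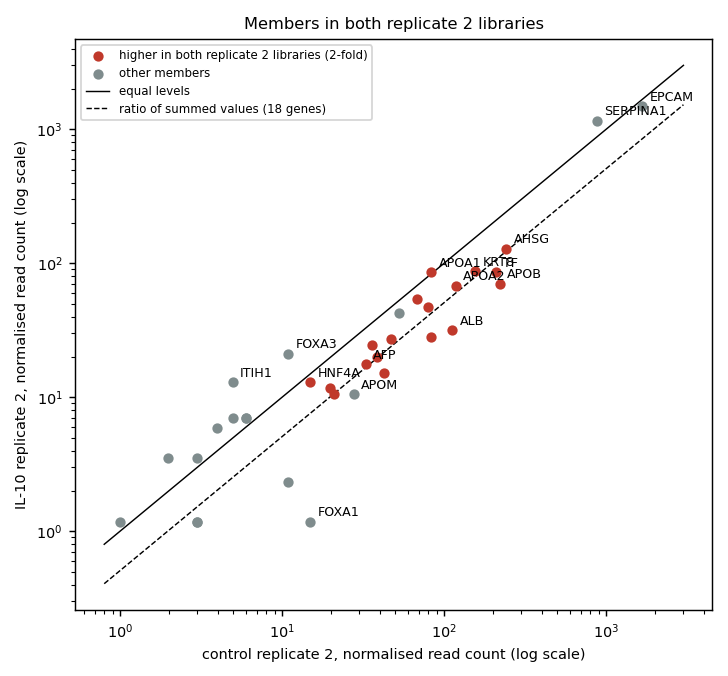
Normalised read counts of the 35 genes in IL-10 replicate 2 (vertical axis) and control replicate 2 (horizontal axis), both on log scales. Red points are the 18 genes at least 2-fold higher in both than in the other 4 libraries; the solid line marks equal levels and the dashed line the ratio of their sums, 0.508. All red points but APOA1 lie below the solid line.

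The ratio was not uniform over the 18. ALB had the lowest, 0.282 (exact 95% interval 0.178 to 0.433), with APOB at 0.318 (0.235 to 0.425) and APOH at 0.342 (0.207 to 0.544). AHSG stood at 0.528 (0.417 to 0.664), KRT8 at 0.557 (0.417 to 0.739) and AFP at 0.537 (0.271 to 1.02). APOA1 had the highest, 1.03 (0.740 to 1.42), and HNF4A 0.867 (0.360 to 2.02). The intervals of 14 of the 18 hold the ratio of the sums and those of 4 do not. Outside the 18, SERPINA1 had a ratio of 1.32 (1.20 to 1.44), EPCAM 0.888 (0.825 to 0.956), APOM 0.380 (0.158 to 0.828), FOXA2 0.215 (0.023 to 0.985) and FOXA1 0.0788 (0.0019 to 0.512).

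GC content moved with these ratios. Genes with a coding GC content under 45% (ALB, AFP, FGG, APOB and APOH) had a median ratio of 0.342, those at 45 to 55% (TF, ITIH2, FGA and APOA2) 0.546, and the other 9, at 55% or more, 0.591. The medians of all genes in these ranges were 0.691, 1.02 and 1.46, so in each range the liver genes had the lower median. Across the 18 genes the Spearman correlation of GC content with the log2 ratio was 0.628 (Pearson 0.689), against 0.648 (0.570) across 16501 genes. These are descriptions over genes of a single pair of libraries, and the part of GC content in the differences between single genes was not tested.

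**Figure D3:**
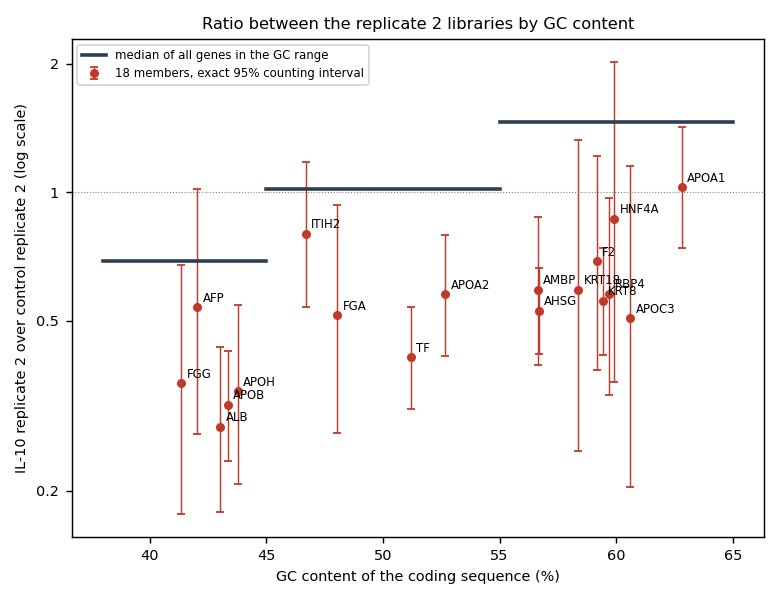
Ratio of IL-10 replicate 2 to control replicate 2 (vertical axis, log scale) against GC content of the coding sequence in percent for the 18 genes, with exact 95% counting intervals. Dark bars are medians of all genes in 3 GC ranges, 0.691, 1.02 and 1.46, and each of the 18 points lies below the bar of its range.

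Setting IL-10 against control asks whether these transcripts differed with the cytokine. In limma on log2(value + 1), 0 of 23996 genes passed an adjusted p of 0.05 (0.0%), and none of the 34 listed genes that reached a value of 1 in 2 or more libraries did. FGB was left out by that filter. At an unadjusted p under 0.05 the numbers were 434 of all genes (1.81%) and 2 of the 34 (5.88%). edgeR called 0 genes (297 unadjusted) and DESeq2 0 (80 unadjusted). The filter keeps many of these genes only through their replicate 2 values: at least 1 in 3 libraries would keep 21 of them. Their log2 fold changes, IL-10 over control, had a median of -0.25 and a range of -2.01 to 0.89, against a median of 0.01 over all genes, with 25 negative and 9 positive. The direction turned with the libraries used: without control replicate 2, 5 were negative and 16 positive of the 21 tested, with TF at 1.03 and AHSG at 1.35. It also turned without IL-10 replicate 1 (9 negative, 25 positive) and without IL-10 replicate 3 (12 negative, 22 positive).

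The spread between replicates made most of these estimates wide. ALB averaged 10.6 ± 18.3 with IL-10 and 37.8 ± 64.6 in control (SD, n = 3 each), a log2 fold change of -0.90 with a 95% interval of -5.06 to 3.25. TF averaged 28.6 ± 49.5 with IL-10 and 70.9 ± 119.5 in control, a log2 fold change of -1.17 (-5.92 to 3.58). Over the 18 genes high in replicate 2, the 95% interval reached 1.71 to 5.02 on the log2 scale to either side, with a median of 3.55. This fit had no term for the replicate number, so a rise shared by both replicate 2 libraries counts as spread. For these genes it leaves large differences in both directions undecided.

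Genes with even levels gave narrow intervals. SERPINA1 averaged 1379 ± 259 with IL-10 and 1205 ± 290 in control, a log2 fold change of 0.21 (-0.30 to 0.72). EPCAM averaged 1763 ± 243 with IL-10 and 1811 ± 119 in control, a log2 fold change of -0.05 (-0.42 to 0.33). The smallest unadjusted p in the set was that of FOXA1 (ENSG00000129514, chromosome 14, 37589984 to 37596059), at 1.03 ± 0.959 with IL-10 and 7.70 ± 6.26 in control, a log2 fold change of -2.01 (SE 0.65). It rests on few reads, at 0, 1 and 2 in IL-10 replicates 1, 2 and 3 and 4, 15 and 5 in control replicates 1, 2 and 3. FOXA3 (ENSG00000170608, chromosome 19, 45863989 to 45873797) averaged 17.5 ± 3.23 with IL-10 and 9.08 ± 2.29 in control, a log2 fold change of 0.89 (SE 0.36). Neither passed in limma (adjusted p = 0.989 for both, unadjusted 0.0124 for FOXA1 and 0.0372 for FOXA3).

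**Figure D4:**
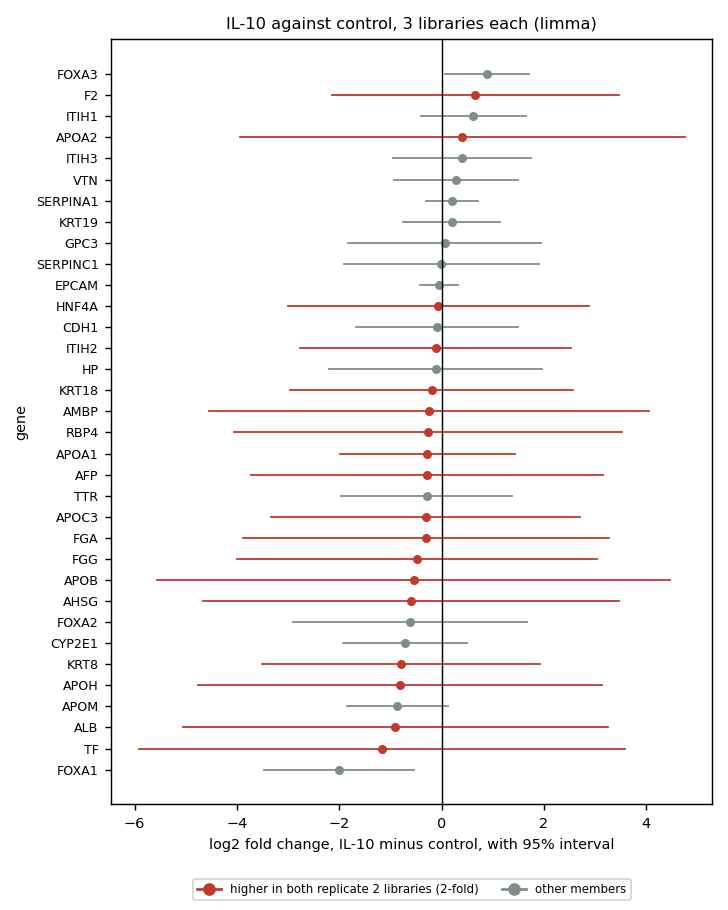
Log2 fold change of IL-10 over control in limma for the 34 genes tested (horizontal axis, on log2(value + 1)), with 95% intervals as bars; red marks the 18 genes high in replicate 2. The widest bars, to 5.02 on either side, are among the red genes, and the intervals of FOXA1 and FOXA3 alone leave out 0 before adjustment.

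Other liver genes were taken from 10 lists of 143 symbols outside the 37, of which 104 had a row. Of those, 14 were at least 2-fold higher in both replicate 2 libraries, against 0.453% of all genes. The fetal and hepatoma list held 6 of 12, AFP among them. IGF2, a fetal growth factor, stood at 110.5 in IL-10 replicate 2 and 197 in control replicate 2, at 0.95 in IL-10 replicate 3 and at 0 in the other three. The imprinted genes PEG10 and PEG3 stood at 35.3 and 16.5 in IL-10 replicate 2, 95.5 and 44.7 in control replicate 2, and 0 in the others, like AFP. DLK1, a Notch-family ligand of liver progenitors, stood at 20.0 and 30.8 in IL-10 and control replicate 2 and 0 elsewhere. Of the same list, H19 was at 2.35 and 1.99 in IL-10 and control replicate 2, near GPC3. LIN28B and AKR1B10 had reads in control replicate 2 alone. The most abundant genes of the list, IGF2BP3 and MDK, were high in every library and not raised in replicate 2. IGF2BP3 stood at 1316 and 1859 in IL-10 and control replicate 2, against 1832 to 1983 in the others. MDK stood at 1012 and 866, against 1058 to 1286.

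Genes of adult liver metabolism gave few or none. Over all genes the share was 0.453%, so counts of 0 in lists this short say little. Which state of liver the transcripts come closest to was not tested. Among drug-metabolising enzymes, 0 of 8 were 2-fold higher, the most abundant being CYP2D6, at 50.5 and 57.7 in IL-10 and control replicate 2 and 31.1 to 42.7 in the other 4. At most 3 reads in every library were found for 4 of these 8, and the other 9 listed enzymes were not analysed here. The counts were 0 of 11 for urea cycle and amino acid genes, where HPD led in summed replicate 2 value at 22.3 and 13.9 in IL-10 and control replicate 2 and 11.2 to 19.6 in the others, and 0 of 6 for gluconeogenesis and fructose genes. KHK, the fructose kinase at the head of that list, stood at 444 and 272 in IL-10 and control replicate 2 and 199 to 244 in the others. Of 6 bile acid genes, CYP27A1, a sterol hydroxylase, was higher, at 10.6 and 12.9 in IL-10 and control replicate 2 and 0.95 to 2.67 in the others. Of 14 other liver transcription factors 0 were, with TBX3 the most abundant in replicate 2, at 537 and 450.5 in its IL-10 and control libraries and 343 to 385 in the others.

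Secreted proteins outside the 37 were mostly short of the 2-fold limit. Higher were 2 of 18 other plasma proteins, the protease inhibitor A2M (90.5 and 181 in IL-10 and control replicate 2, 5.34 to 11.4 in the others) and the angiotensin precursor AGT (32.9 and 45.7, against 0.95 to 4.45). Of 11 coagulation genes, 2 were higher, PROC for protein C (12.9 and 19.9, against 3.80 to 5.59) and F10 for factor X (7.05 and 9.94, against 0 to 0.95). KNG1, for kininogen, went the other way, at 2.35 and 6.96 in IL-10 and control replicate 2 and 14.9 to 24.9 in the others, 2-fold lower in both. Of 11 complement genes, CFI, for factor I, was higher at 7.05 and 6.96 in IL-10 and control replicate 2 and 0 elsewhere, while C3, the most abundant, stood at 7339 and 4627, against 2203 to 2744. Among lipid genes, APOE, a carrier of lipoprotein remnants, stood at 160 and 166 in IL-10 and control replicate 2, against 32.3 to 47.0, and the fatty acid binder FABP1 at 7.05 and 25.9, against 0.

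Few markers of other cell types were at least 2-fold higher in both replicate 2 libraries, and over all genes the share was 0.453%. Higher were SOX9 of 7 bile duct markers, at 11.8 and 14.9 in IL-10 and control replicate 2 and 0 to 0.95 in the others, and the microvillus protein gene VIL1 of 3 intestinal markers, at 12.9 and 26.8 and 0 to 1.07. The count was 0 of 4 stellate, 0 of 8 endothelial, 0 of 7 Kupffer cell, 0 of 4 kidney, 0 of 2 lung, 0 of 1 pancreas, 0 of 3 squamous and 0 of 4 red cell markers. Beside the share over all genes, 0 in lists this short says little. Some markers were lower in both, such as MUC1 at 35.3 and 32.8 in IL-10 and control replicate 2, against 66.1 to 102. PAX2 stood at 0 and 0.994, against 5.34 to 10.7. Summed over the endothelial list, the value was 134 in IL-10 replicate 2 and 112 in control replicate 2, inside the range of 87.6 to 175 in the other 4. The Kupffer cell list summed to 1232 and 888 in IL-10 and control replicate 2 and 1082 to 1641 in the others, nearly all of it VSIG4, and 5 of its 7 genes were at or under the floor in every library. The red cell list summed to 25.9 and 4.97 in IL-10 and control replicate 2, against 11.6 to 23.7. The bile duct list shares EPCAM and KRT19 with the set described here. All lists were drawn up with earlier results of these data known.

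**Figure D5:**
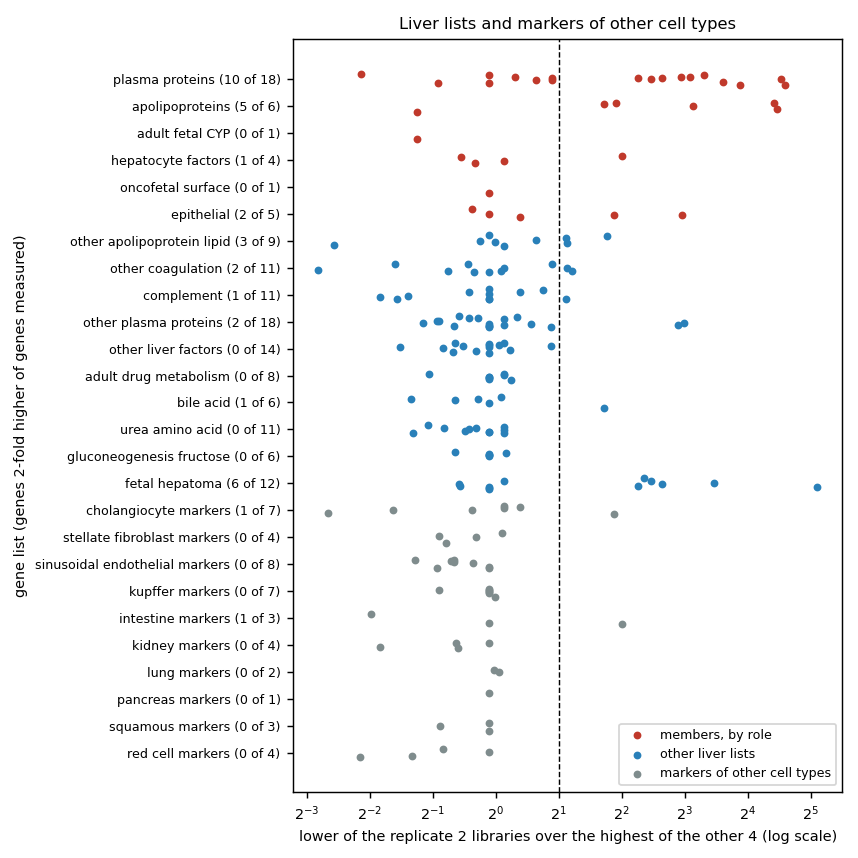
Each point is a gene with a row, placed by the lower of its replicate 2 values over the highest of the other 4, each raised to a floor of 3 reads (log scale), with gene lists down the page and the number 2-fold higher of the number measured beside each name. The dashed line marks 2-fold; plasma proteins (10 of 18), apolipoproteins (5 of 6) and the fetal and hepatoma list (6 of 12) have the largest shares to its right.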

How the data were processed

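The authors deposited 1 table of 27576 Ensembl genes and 6 libraries, made from total RNA with an Illumina TruSeq kit, per the labels' protocols. Its name says FPKM, but the deposited signal holds no length scaling: each value is a read count over its library's size factor (0.851 to 1.12). All values were whole multiples of 1 step within 0.01 read, so reads were recovered. The step of control replicate 2, 0.994, is too close to 1 for an automatic check, so edgeR was also run without it. Builds GRCh38 and hg38 and the tool edgeR 3.18.1 are named in the submitters' processing notes, without a role. The aligner, counter, annotation and strand use were not given in the sources used here.

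Of the identifiers, 26883 matched a symbol and 27052 matched GENCODE 29 (GRCh38), from which coordinates and the coding length and GC content of the principal transcript come. The plan assumed FPKM and was kept: limma 3.58.1 (R 4.3.3) with a trend on log2(value + 1), where genes had to reach a value of 1 in 2 or more libraries, with two-sided p-values, Benjamini-Hochberg adjustment over all of those genes and a threshold of 0.05. A value of 1 is 1 read in IL-10 replicates 1 and 2 and 2 reads in the other libraries. Fold changes on this scale understate those of low genes. Count tests on recovered reads used edgeR 4.0.16 (quasi-likelihood) and DESeq2 1.42.0. The limma and edgeR fits were tested on simulated data, and DESeq2 was not. Replicate 2 values were set against the highest of the other 4, with a floor of 3 reads per library. Ratios between both replicate 2 libraries have exact intervals for counting error only.

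Same-numbered libraries deviated together, with correlations of 0.367, 0.605 and 0.726 for pairs 1, 2 and 3 over 11605 genes with a mean of at least 50. All exceed 0.1, so a replicate block, which treats same-numbered libraries as pairs, was fitted as an alternative. The main limma fit, with the intervals and p-values given above, had no such block. Between differently numbered libraries the correlations ran from -0.692 to 0.208. Those of IL-10 replicate 1 with control replicate 3 (0.176) and IL-10 replicate 3 with control replicate 1 (0.208) also exceed 0.1. No label states what the number stands for, and the pairing rests on these correlations. The genes and lists were chosen with earlier results of these data known. Genes named with all values are the 14 highest in summed replicate 2 value and 13 fixed ones. In other lists, up to 3 genes that were higher, or otherwise the most abundant, are named by the rule. A few more (H19, LIN28B, AKR1B10, IGF2BP3, MDK, KNG1, C3, CYP27A1 and the remaining listed genes) were chosen after their values were seen. Promoters are RefSeq's. A further result of the lipid list is not reported here.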

Additional observations from a re-analysis of the deposited data

How the results depend on the processing

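Of the 16 to 35 listed genes that each fit tested, none passed the threshold for IL-10 against control in 22 other fits, over other pseudocounts, filters, scalings, sample weights, edgeR, DESeq2, a replicate block and every library left out in turn (0 to 0 genes). DESeq2 gave no adjusted p for 7 of its 34 (ALB, TF, AHSG, AMBP, APOA2, APOB and APOH). The lowest adjusted p of a named gene was 0.248, for FOXA1 with sample weights. In 438 comparisons of the 23 named genes with a row, the sign changed 52 times, in 17 genes. With the replicate block 0 genes passed (600 unadjusted). Pairs 1 and 3 only with the replicate block, added after seeing the data, called 10 genes, none of the 16 listed genes tested; the cause was not tested. The count of 18 higher in replicate 2 was 15 at 4-fold, 6 at 10-fold, 22 with a floor of 1 read, 12 with a floor of 10 reads and 18 to 21 leaving out each library. The count over all genes, 125, became 858 when control replicate 2 was left out and 309 when IL-10 replicate 2 was. The median ratio of the 29 genes between both replicate 2 libraries, 0.578, became 0.476 with equal totals (0.866 over all genes) and 0.830 as a ratio of sums, which SERPINA1 and EPCAM dominate. Without the 5 epithelial genes the reads per 1000000 were 72.6 and 109 in IL-10 and control replicate 2, 62.3 and 81.7 in IL-10 replicates 1 and 3, and 63.6 and 70.8 in control replicates 1 and 3. For the 14 genes at most 1 in each of the other 4 they were 10.7 and 31.9 in IL-10 and control replicate 2, 0 and 0 in IL-10 replicates 1 and 3, and 0 and 0.0826 in control replicates 1 and 3. The shares change because other genes enter the sum. Depth limits genes such as GPC3, FGB, TTR and CDH1, with at most 3 reads per library.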

Other observations

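Of the 125 genes at least 2-fold higher in both replicate 2 libraries, 32 were in the liver lists and 93 were not. Among the 93, DKK1, a secreted Wnt inhibitor, was furthest above the other libraries, at 87.0 in IL-10 replicate 2 and 194 in control replicate 2 with 0 reads elsewhere, at least 27.1-fold. FN1, for fibronectin of matrix and plasma, stood at 326 and 554 in IL-10 and control replicate 2, against 21.4 and 23.7 in IL-10 replicates 1 and 3 and 31.7 and 16.0 in control replicates 1 and 3. FGFR4, a fibroblast growth factor receptor of hepatocytes, stood at 39.96 and 36.8 in IL-10 and control replicate 2 and 0 to 2.85 in the other 4. IGFBP1, an insulin-like growth factor binder secreted by liver, stood at 21.2 and 48.7 in IL-10 and control replicate 2 and 0 to 0.890 in the others. DHRS2, a short-chain dehydrogenase, stood at 75.2 and 140.2 in IL-10 and control replicate 2 and 0.932 to 6.41 in the others.

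The other 15 of the 20 genes with the largest gaps were SP5, RELN, MAN1A1, GDF15, PYCR1, KLHDC7B, CPE, ESPN, CXCL1, SDC2, DSP, CAMK2N1, PLA2G2A, TGM2 and FAT1. Over the 107 higher genes that are not among the 37, the median ratio of IL-10 replicate 2 to control replicate 2 was 0.765, with 72 below 1, against 0.547 and 17 of 18 among the listed genes. Whether these medians differ was not tested.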
